A study of Mus musculus with 52 samples.

Results

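The Wnt and planar cell polarity genes comprised 64 of the 24421 gene symbols counted in Cilia-APEX-IMCD3 cells, a mouse line from the inner medullary collecting duct of the kidney. They were chosen by symbol alone and held 19 Wnt ligands, 10 Fzd receptors, 4 Sfrp, 4 Dkk and 4 Rspo secreted regulators, 2 Ror and 3 Lgr receptors, 2 Axin and 3 Dvl genes, the 4 genes Lef1, Tcf7, Tcf7l1 and Tcf7l2, and the polarity genes of the Celsr (3), Vangl (2) and Prickle (4) families. The study edited Wdr34 and Wdr60, which encode the intermediate chains of the retrograde ciliary motor dynein-2, and asked how homozygous missense clones differ from controls in ciliated and non-ciliated cells. The labels name 13 clones by state, each with 4 technical replicate libraries, 52 in all. The study's methods describe fewer clones than there are names, so a clone may have been measured in both states under different names, and a clone here means 1 name in 1 state. Ciliated cells comprised 2 homozygous Wdr34 clones labelled 1 and 3, 1 homozygous Wdr60 clone and the controls D8, H12, A4 and G7, each a clone. The non-ciliated set held 1 homozygous Wdr34 clone, 1 homozygous Wdr60 clone and the control clones AB, Co1, Co2 and Co3. Every clone, controls included, was transfected with the cytosine base editor BE4-Gam and grown from a single sorted cell, the controls with a guide vector that held no target. The study's Wdr34 alleles were an Arg-to-Trp change and a Gly-to-Ser change, the latter in a clone with a further heterozygous Gly-to-Asp change. Its Wdr60 allele was an Ala-to-Val change beside a heterozygous synonymous change. The labels do not say which Wdr34 allele clone 1 or clone 3 carried. By the paper the Gly-to-Ser clone was absent from the non-ciliated analysis, which leaves the Arg-to-Trp change for the non-ciliated Wdr34 clone. The paper describes 1 ciliated clone for each of its 3 alleles, so a clone and its mutation cannot be told apart. Ciliated cells were starved of serum by the study's methods, whereas the labels give the same serum medium for all libraries, and state and serum cannot be told apart. The labels link no clone of one state to a clone of the other, so clones of the 2 states were compared as unpaired.

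Wnt ligands are secreted proteins that bind Frizzled (Fzd) receptors. In the beta-catenin branch, Dishevelled (Dvl) proteins then inhibit a complex built on Axin that degrades beta-catenin, and beta-catenin joins Tcf and Lef proteins at target genes such as Axin2. In the planar cell polarity branch, Fzd and Dvl work with Celsr, Vangl and Prickle proteins to align cells within the plane of a sheet. In the kidney, Wnt ligands of the ureteric bud and collecting duct act on nephron formation and medullary growth, and polarity genes act on the orientation of tubule cells.

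The libraries held 14816218 to 28084979 counts. Of 18 listed markers of collecting duct and tubule, 9 to 13 were at 1 CPM (counts scaled to library size) or more in a clone, but the water channel Aqp2 and the regulators Avpr2 and Tfap2b were at 0 or near 0 in all 13 clones. Their summed level ranged from 1162.2 CPM in the non-ciliated control Co2 to 5015.4 CPM in the ciliated control D8, and was 1987.2 CPM in the ciliated control G7 and 2059.3 CPM in the ciliated Wdr34 clone 3. The summed level of 15 mesenchyme markers ranged from 179.35 to 1367.1 CPM, that of endothelial markers from 0.012 to 0.19 CPM and that of leukocyte markers from 0.97 to 5.29 CPM. G7, Co2 and Wdr34 clone 3 stood apart from the other clones in some epithelial genes and not in others. Epcam, an epithelial adhesion molecule, was at 14.0 CPM in G7 and 2.8 CPM in Co2 and at 175 CPM or more in every other clone. Krt8, a keratin of simple epithelia, was at 27.3 CPM in G7, 40.2 CPM in Co2 and 78.8 CPM in clone 3 and at 387 CPM or more in every other clone. Clone 3 was within the range of the non-ciliated clones in Epcam (295 CPM) and Cdh1 (309 CPM). Among the ciliated clones it lay between G7 and the rest, which were at 653 to 852 CPM in Epcam and 417 to 661 CPM in Cdh1. The tubule cadherin Cdh16 and the kidney transcription factors Pax2 and Pax8 were highest of the ciliated clones in G7 (875, 322 and 436 CPM) and highest of the non-ciliated clones in Co2 (260.3, 271 and 294 CPM). Zeb1, a repressor of epithelial genes, was at 73.4 CPM in G7, 80.0 CPM in Co2 and 69.3 CPM in clone 3. In every other clone Zeb1 was at 37.2 CPM or less. Other mesenchyme markers did not all set these clones apart. Cdh2 was highest of the ciliated clones in G7 (394 CPM). In Co2 (531 CPM), however, Cdh2 was below its level in Co1 (858 CPM) and Co3 (916 CPM). Col1a1 was lowest of the ciliated clones in G7 (0.356 CPM) and highest of the non-ciliated clones in Co2 (5.23 CPM). These values stand beside the results below, and their part in those results was not tested. The edited genes do not check the labels, since a missense change need not alter the RNA: Wdr34 ranged from 21.2 to 50.8 CPM and Wdr60 from 19.5 to 29.8 CPM over the clones.

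A level of 1 CPM was reached by 28 members in all 13 clones, by 11 in some clones and by 25 in none. No count was found in any library for Dkk1, Fzd10, Ror2 and Wnt3a, which allows a level of up to 0.00322 CPM (3 counts over all libraries). A further 19 members had at most 9 counts in a library, and 39 members passed the filter on low counts in at least 1 of the 11 comparisons. The 25 that passed in none included all members of the Rspo, Sfrp and Ror families, which amplify Wnt signals, bind Wnt ligands outside the cell and act as Wnt5a receptors. The highest members of these 3 families were Rspo3 (0.124 CPM in Wdr34 clone 3 and 0 in the other 12 clones), Sfrp5 (at most 0.254 CPM, in G7) and Ror1 (at most 0.632 CPM, in Wdr34 clone 3). The others in this group were Dkk1, Dkk2, Dkk4, Lgr5, Celsr3, Prickle4, Fzd10 and 8 Wnt ligands: Wnt1, Wnt3, Wnt3a, Wnt5b, Wnt8a, Wnt8b, Wnt9b and Wnt10b.

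Per kilobase of exon, the highest member was Wnt7b, a collecting duct ligand, at a mean of 69.2 CPM per kb over the 13 clones. Lgr4, a receptor for R-spondins, followed at 67.1, Fzd6 at 39.8, the scaffold Axin1 at 36.4, Dvl1 at 27.3 and Dvl2 at 21.7 CPM per kb. Of the polarity genes, Celsr2, an adhesion receptor of the cell surface, was at 18.9 CPM per kb, Vangl1 at 13.9 and Prickle3 at 2.13. Among the other ligands, Wnt16 was at 14.2, Wnt7a at 9.82, Wnt9a at 9.70 and Wnt4 at 8.04 CPM per kb. Axin2, a target of beta-catenin, was near the bottom of the tested members at 0.176 CPM per kb. The order of neighbours in this list is not fixed, because the levels of Wnt7b, Lgr4 and Wnt16 varied between clones by far more than their distance in the list.

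**Figure D1:**
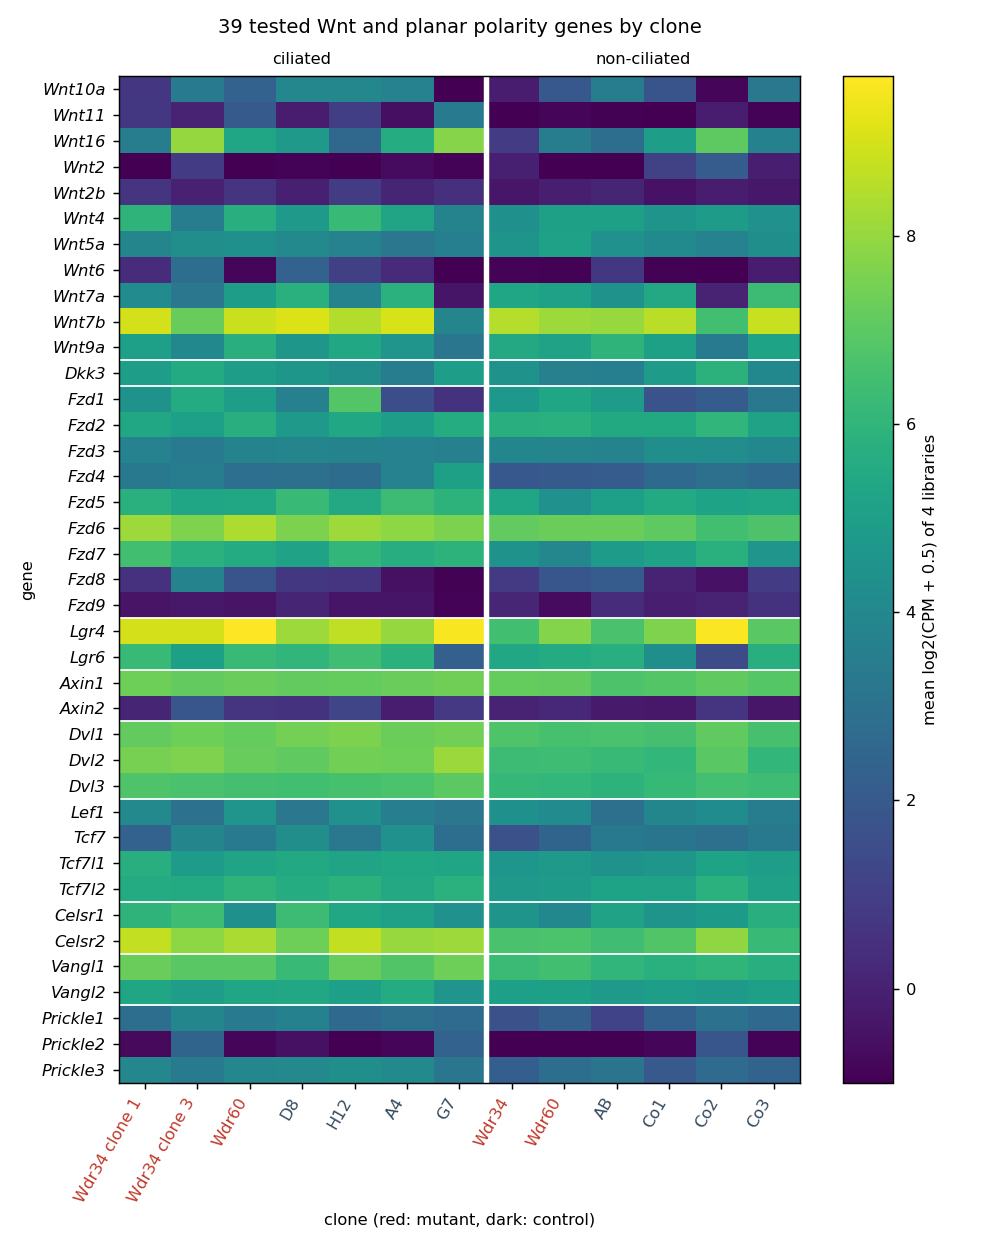
Mean log2(CPM + 0.5) of the 4 libraries of each of 13 clones (columns, ciliated left, non-ciliated right, mutants in red) for the 39 members tested in at least 1 comparison (rows, by family). Among the control clones, Wnt7b is lowest and Wnt16 and Lgr4 are highest in G7 and in Co2.

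The 4 control clones of a state, which carry no edit of either gene, differed among themselves in most members. Of 37 members tested among the ciliated controls, 26 passed an adjusted p of 0.05 (edgeR) with a ratio of at least 2 between the highest and the lowest clone, beside 32.9% of all genes tested. Among the non-ciliated controls 21 of 38 members did so, beside 25.6% of all genes. Libraries within a clone are technical replicates, so these tests speak of the clones and not of a population of clones. This spread between unedited clones is the background against which the mutants are read.

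Wnt7b was at 567 CPM in D8, 354 in H12, 525 in A4 and 14.3 in G7, and in the non-ciliated controls at 264 CPM in AB, 381 in Co1, 86.8 in Co2 and 441 in Co3. Wnt7a, a close relative of Wnt7b, was at 55.3, 13.2, 57.8 and 0.275 CPM in D8, H12, A4 and G7 and at 22.2, 44.1, 0.597 and 81.4 CPM in AB, Co1, Co2 and Co3. Of the exon bases of Wnt7b, 6.61% overlap the gene AU022754. Both ligands were lowest in G7 among the ciliated and in Co2 among the non-ciliated controls. Wnt10a, an epithelial ligand, was at 15.1, 15.1 and 12.9 CPM in D8, H12 and A4, with no count in the 4 libraries of G7. A count of 0 there allows up to 0.0396 CPM (3 counts over the 4 libraries of the clone), which puts G7 at least 325-fold lower than A4. In the non-ciliated controls Wnt10a was at 10.8 CPM in AB, 3.01 in Co1, 0.0673 in Co2 and 9.31 in Co3, and Co2 was again the lowest. Wnt6, a ureteric bud ligand, was at 4.69, 1.58 and 0.766 CPM in D8, H12 and A4 and had no count in G7, at least 19.4-fold lower than A4.

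Other members ran the opposite way. Wnt16 was at 27.2, 5.70, 49.7 and 218 CPM in D8, H12, A4 and G7 and at 6.75, 30.7, 134 and 12.4 CPM in AB, Co1, Co2 and Co3. Lgr4 was at 283, 412, 262 and 771 CPM in the ciliated controls and at 99.2, 197, 806 and 126 CPM in the non-ciliated controls, in the same clone order. G7 and Co2 were highest in both genes. Of the 33 members tested in both states, 8 were lowest in G7 among the ciliated and in Co2 among the non-ciliated controls (Fzd8, Lgr6, Tcf7, Vangl2, Wnt10a, Wnt7a, Wnt7b and Wnt9a), and 8 were highest in both (Axin1, Dkk3, Dvl2, Dvl3, Fzd2, Fzd4, Lgr4 and Wnt16). Across these 33 members, the deviations of G7 from the mean of its control clones and those of Co2 from its own had a Pearson r of 0.895, against 0.777 across the 11676 other genes tested in both states. The next likest pairs were D8 with Co3 (0.858 across the members), H12 with AB (0.756) and A4 with Co1 (0.72), and across the other genes these pairs had 0.686, 0.544 and 0.483. These correlations run across genes, which are not independent replicates, and deviations within 4 clones sum to 0, so they are given as a description. The labels do not say whether any of these pairs is 1 clone measured in both states. Cdh1, the epithelial cadherin, was at 15.0 CPM in G7 and 4.1 CPM in Co2 and at 235 CPM or more in every other clone. In bulk RNA, fewer cells of a type and less RNA per cell cannot be told apart.

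A few further members, singled out after their values were seen, set the same clones apart. Prickle2, a relative of Prickle1 in the polarity core, was at 5.0 CPM in the ciliated Wdr34 clone 3, 4.75 CPM in G7 and 3.13 CPM in Co2 and at most 0.213 CPM in the other 10 clones. Wnt11, a ligand of the ureteric bud tips, was at 10.0 CPM in G7 and at most 3.56 CPM in the other 12 clones. Lgr6, a receptor for R-spondins like Lgr4, was at 4.53 CPM in G7 and 2.36 CPM in Co2 and between 19.5 and 85.1 CPM elsewhere. Narrower ranges over the 13 clones were found in 8 more members: Fzd2 from 26.3 to 65.9 CPM, Fzd3 from 10.5 to 19.1, Dvl3 from 66.1 to 129, Tcf7l1 from 21.9 to 52.6, Vangl2 from 23.3 to 47.9, Prickle1 from 1.80 to 14.8, Wnt9a from 8.75 to 61.7 and Wnt2b from 0.236 to 1.36 CPM.

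**Figure D2:**
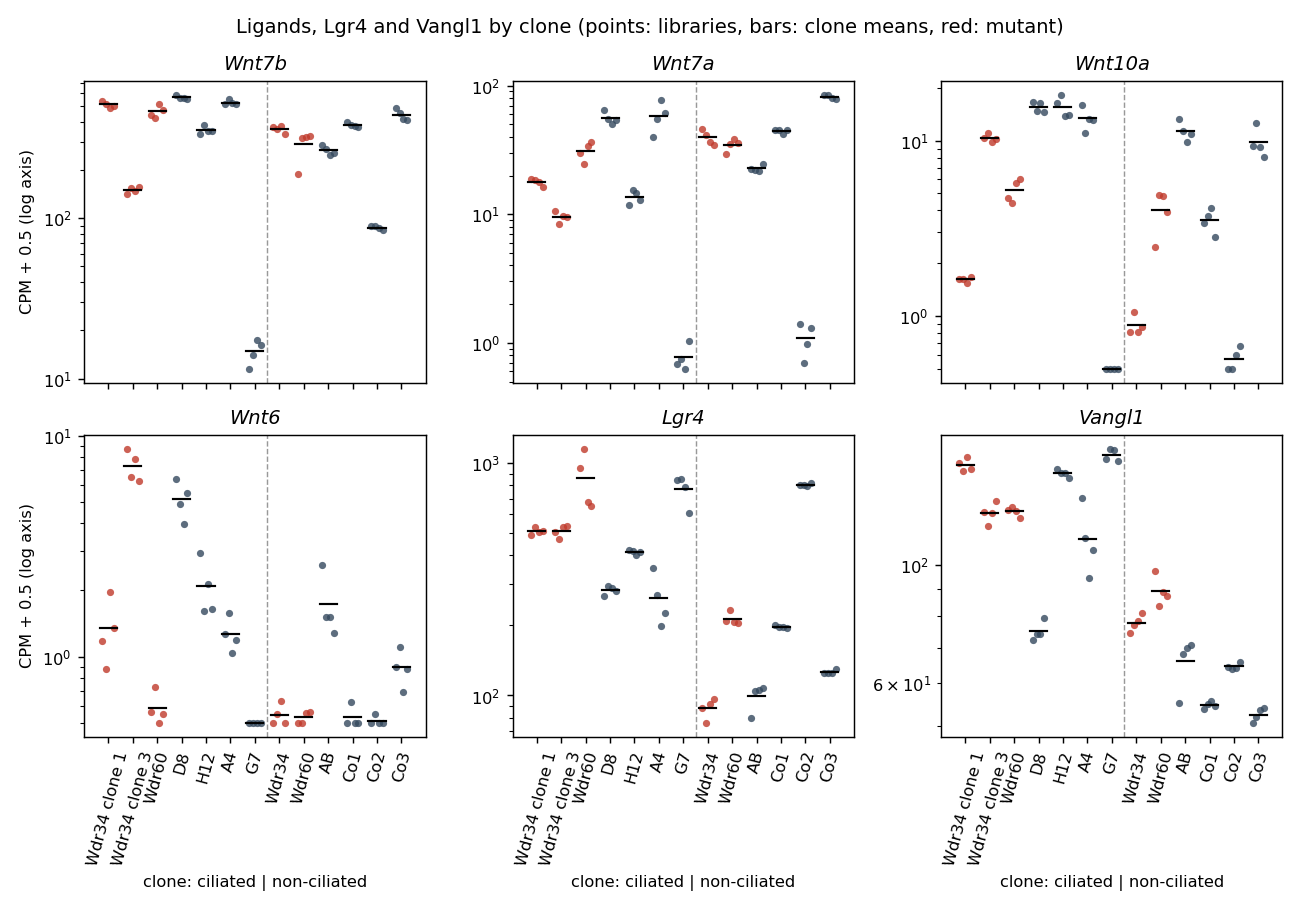
CPM + 0.5 (log axis) of Wnt7b, Wnt7a, Wnt10a, Wnt6, Lgr4 and Vangl1 in each library (points) with the clone mean (bars) for 13 clones, ciliated left of the dashed line and non-ciliated right, mutants in red. G7 and Co2 are the lowest control clones of their state in Wnt7b, Wnt7a and Wnt10a and the highest in Lgr4.

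The sequences upstream of 4 of these genes are shown because 2 of them, Wnt7a and Wnt6, were low in G7, whereas the other 2, Wnt16 and Lgr4, were high in it. Each line gives the 250 bases before the annotated start, 5′ to 3′ on the strand of the gene, from RefSeq on GRCm38.p6, with CG dinucleotides in capitals. They lie at chr6:91411354-91411603 on the minus strand for Wnt7a, chr1:74771642-74771891 on the plus strand for Wnt6, chr6:22287977-22288226 on the plus strand for Wnt16 and chr2:109917397-109917646 on the plus strand for Lgr4.
Wnt7a: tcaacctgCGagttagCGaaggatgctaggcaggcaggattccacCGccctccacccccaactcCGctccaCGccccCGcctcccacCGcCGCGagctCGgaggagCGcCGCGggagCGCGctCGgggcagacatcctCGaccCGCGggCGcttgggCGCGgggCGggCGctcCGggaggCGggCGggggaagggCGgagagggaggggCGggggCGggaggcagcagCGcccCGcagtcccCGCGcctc
Wnt6: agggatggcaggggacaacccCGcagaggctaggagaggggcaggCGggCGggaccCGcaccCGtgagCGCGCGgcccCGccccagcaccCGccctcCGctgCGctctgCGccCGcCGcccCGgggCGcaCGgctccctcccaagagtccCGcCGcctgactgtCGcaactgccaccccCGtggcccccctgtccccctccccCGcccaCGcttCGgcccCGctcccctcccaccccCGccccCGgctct
Wnt16: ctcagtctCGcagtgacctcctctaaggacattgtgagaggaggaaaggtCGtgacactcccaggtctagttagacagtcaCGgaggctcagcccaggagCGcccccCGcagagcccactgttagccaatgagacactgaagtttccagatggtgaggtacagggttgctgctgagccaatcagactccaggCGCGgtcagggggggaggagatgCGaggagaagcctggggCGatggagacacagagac
Lgr4: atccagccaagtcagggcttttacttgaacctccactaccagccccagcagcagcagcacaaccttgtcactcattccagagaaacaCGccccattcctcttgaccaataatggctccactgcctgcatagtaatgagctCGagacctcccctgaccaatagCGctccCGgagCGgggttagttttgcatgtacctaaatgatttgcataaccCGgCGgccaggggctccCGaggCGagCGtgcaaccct
There were 34 CG dinucleotides in the Wnt7a stretch and 28 in that of Wnt6, against 9 for Wnt16 and 10 for Lgr4. The 4 genes were chosen after their values were seen, and other members did not follow this order: Dvl3 and Fzd4, also highest in G7 and Co2 among the controls, had windows with a GC content of 74.0% and 72.7%, beside 76.0% for Wnt7a, 76.7% for Wnt6, 58.0% for Wnt16 and 58.3% for Lgr4. RefSeq windows of 300 bases, 250 before and 50 after the start, were found for 46 of the 64 members. Their median GC content was 67.3% beside 52.7% for all 32851 windows. The Tcf and Lef motifs CTTTGAA and CTTTGAT, which share all but their last letter, were searched on both strands. A match to either was found in 4 of 58 member windows (6.9%) and in 8.65% of all windows. The 4 windows were those of Dkk1, Prickle2, Wnt11 and Wnt5b. These letters did not occur in the windows of the 4 genes printed.

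In ciliated cells, 1 member passed the threshold between the 3 mutant and the 4 control clones. A member is called here at an adjusted p under 0.05 (edgeR's quasi-likelihood test over all genes, with Benjamini-Hochberg adjustment) with a log2 fold change of 1 or more in either direction. Fzd8 was called higher in mutants, and no member was called lower, of 36 tested. Over all genes, 0.418% were called higher and 0.226% lower. Without G7, the control clone that stood apart, Fzd8 and Wnt16 were called higher and Wnt10a and Wnt7a lower, beside 1.23% and 1.66% of all genes in that fit. Without H12, Fzd1 joined Fzd8, beside 0.949% of all genes higher. The median log2 fold change was 0.12 over the members tested and -0.01 over all genes, and 10 members (27.8%) had an unadjusted p under 0.05, beside 19.2% of all genes.

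Fzd8 encodes a Wnt receptor. It was at 0.944 CPM in Wdr34 clone 1, 13.3 in Wdr34 clone 3 and 2.97 in Wdr60, and at 1.23, 1.12, 0.206 and 0.0244 CPM in D8, H12, A4 and G7. Wdr34 clone 3 was far above all others, and clone 1 lay within the range of the controls. Fzd8 passed the filter on low counts through the mutants, since A4 and G7 were too low for the controls alone to pass it. Its call thus had little room to go lower. The log2 fold change was 3.15 ± 0.61 (SE, adjusted p = 0.00362, edgeR). Without clone 3 it was 1.60 with an adjusted p of 0.116, and no member was called. With the clone as the unit, mean log2 CPM differed by 2.05 and the exact 2-sided permutation test over 35 splits gave p = 0.114, where the smallest p possible is 0.0286.

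Dkk3, a secreted glycoprotein of the Dickkopf family, was the only member tested whose mutant clone means all lay above the controls. It was at 31.3 CPM in Wdr34 clone 1, 46.6 in clone 3 and 31.4 in Wdr60, against 24.8 in D8, 19.0 in H12, 11.1 in A4 and 30.8 in G7. The lowest mutant exceeded the highest control, G7, by less than the SD between the libraries of either clone. Mutants averaged 36.4 ± 8.82 CPM (SD, n = 3) and controls 21.5 ± 8.40 CPM (n = 4), with an exact permutation p of 0.0571, and the log2 fold change of 0.76 ± 0.17 had an adjusted p of 0.0127 (edgeR). Over all genes, 0.987% had mutant clone means wholly above and 0.962% wholly below those of the controls, and no tested member lay wholly below. Sfrp5, too low to be tested, did so, at 0 to 0.0547 CPM in mutants and 0.0641 to 0.254 CPM in controls.

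Below the fold limit, 2 further members of 36 had an adjusted p under 0.05. Wnt5a, a ligand of the polarity branch, was at 14.1, 19.2 and 20.8 CPM in Wdr34 clone 1, clone 3 and Wdr60 and at 15.9, 13, 8.91 and 11.8 CPM in D8, H12, A4 and G7 (log2 fold change 0.54 ± 0.12, adjusted p = 0.0126, edgeR). Fzd5, a Wnt receptor, was at 55.6, 40.1 and 42.9 CPM in the mutants and at 75.6, 44.0, 82.6 and 60.4 CPM in the controls, in the same order (-0.51 ± 0.13, adjusted p = 0.0288, edgeR). In both genes the clones of the 2 groups overlapped.

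The remaining named members did not pass the test between ciliated mutants and controls. Celsr1, a polarity adhesion receptor, was at 61.0, 82.1 and 20.3 CPM in Wdr34 clone 1, clone 3 and Wdr60 and at 79.3, 41.8, 35 and 20.7 CPM in D8, H12, A4 and G7. Wdr60 was the lowest and clone 3 the highest of the 7 clones. Axin2 was at 0.575, 3.19 and 1.03 CPM in the mutants and 0.992, 1.92, 0.394 and 1.25 CPM in the controls. Wnt6 was at 0.840 CPM in Wdr34 clone 1, 6.82 in clone 3 and 0.0837 in Wdr60, where 6 counts were found over 4 libraries, beside 0 to 4.69 CPM in the controls. In all 3 genes the mutant clones overlapped the controls. Their log2 fold changes were 0.30 ± 0.28 for Celsr1, 0.49 ± 0.37 for Axin2 and 0.56 ± 0.77 for Wnt6, with adjusted p of 0.612, 0.506 and 0.74 (edgeR). Axin1, the constitutive scaffold, was at 160, 140 and 156 CPM in the mutants and 138 to 166 CPM in the controls. Dvl2 was at 152 to 199 CPM in mutants and 134 to 276 CPM in controls, Vangl1 at 124 to 153 and 74.6 to 160 CPM, and Celsr2 at 239 to 427 and 160 to 416 CPM.

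**Figure D3:**
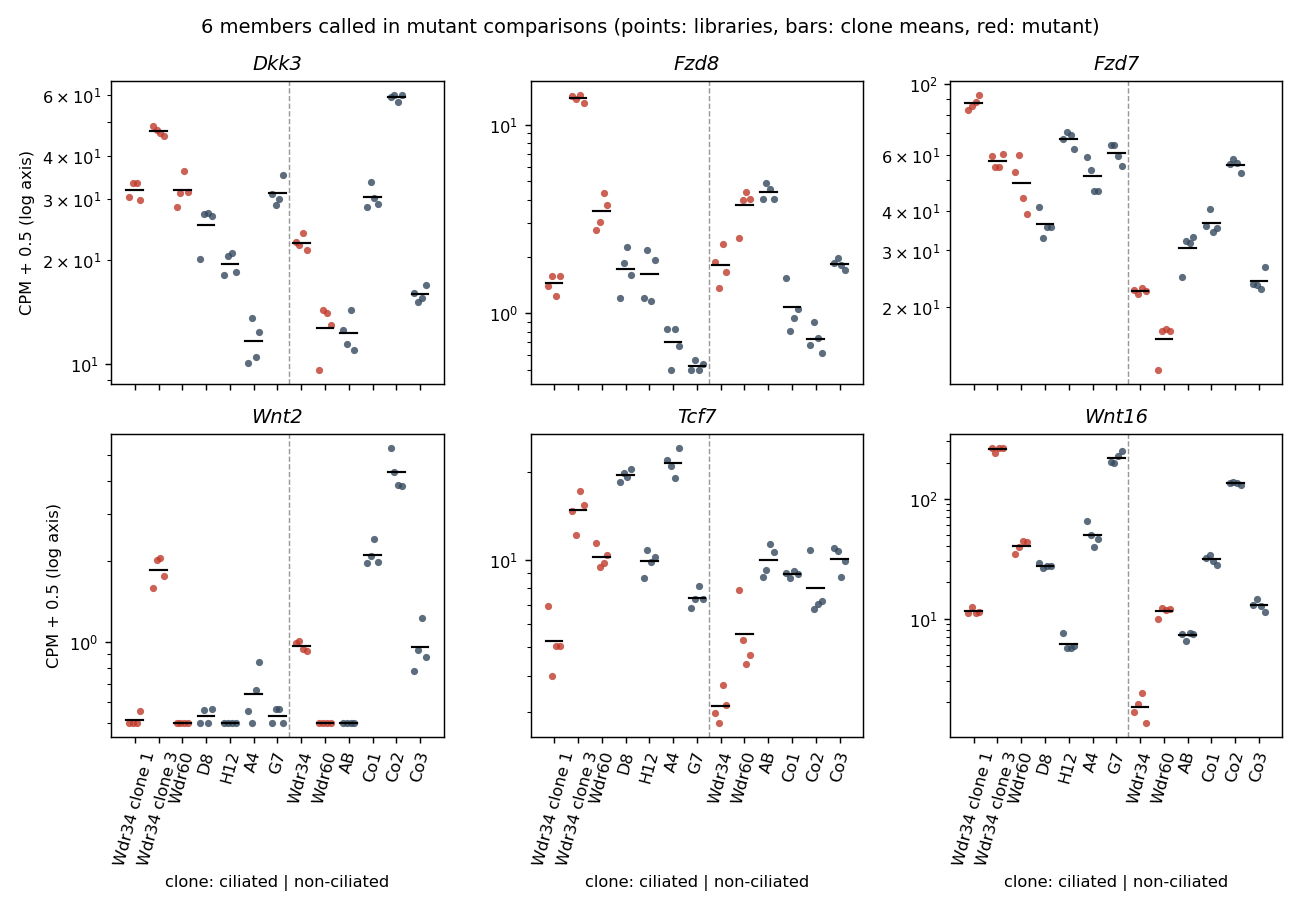
CPM + 0.5 (log axis) in each library (points) with the clone mean (bars) for Dkk3, Fzd8, Fzd7, Wnt2, Tcf7 and Wnt16 in 13 clones, ciliated left of the dashed line and non-ciliated right, mutants in red. Fzd8 is highest in Wdr34 clone 3, and Tcf7 is lower in both non-ciliated mutant clones than in all 4 controls.

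Taken one at a time against the same 4 controls, which the comparisons share, the ciliated mutant clones gave different calls. Wdr34 clone 3 had 4 members called higher and 1 lower of 38, beside 3.64% of all genes higher and 2.16% lower. Axin2 (log2 fold change 1.46 ± 0.41, adjusted p = 0.0149), Dkk3 (1.10 ± 0.26, 0.00404) and Fzd8 (4.35 ± 0.68, 0.000109) were called higher by edgeR. Wnt2 was the other member called higher, but it passed the filter on low counts only through clone 3, where it was high. Its call could go no other way and adds nothing to its values. Wnt4, a ligand that induces nephron epithelium, was called lower (-1.79 ± 0.51, adjusted p = 0.0162, edgeR). Wnt2 was at 1.36 CPM in clone 3 and between 0 and 0.141 CPM in the 4 controls. Wnt4 was at 11.2 CPM in clone 3 against 26.5, 74.1, 39.3 and 13.6 CPM in D8, H12, A4 and G7, and was at 61.0 CPM in clone 1 and 52.9 CPM in Wdr60. In clone 3, Wnt4 lay just below G7, and Wnt16 was at 258 CPM, the highest of the 7 ciliated clones with G7 next at 218 CPM. Without G7, 11 members (28.9%) were called, beside 13.1% of all genes, with Prickle2, Wnt16 and Wnt6 also higher and Lgr6, Wnt7a and Wnt7b also lower. Of these, Prickle2 and Wnt2 passed the filter in that fit only through clone 3, so the filter decided their calls and the share includes them. Leaving out A4 took the Dkk3 call (0.89, under the fold limit), the Wnt4 call was lost when any 1 of the 4 replicate numbers was left out, and that of Axin2 was lost without number 3 or 4. Of 7 tested mesenchyme markers in clone 3, only Dcn, a fibroblast proteoglycan, was called (higher, edgeR). Of the 7, 6 were positive and 1 negative, with a median of 0.83. Dcn was at 29.9 CPM in clone 3 and at most 1.1 CPM elsewhere. Vim, an intermediate filament of mesenchyme, was at 202 CPM in clone 3 and 155 CPM in G7 and at 31.7 CPM or less in the other ciliated clones. Cdh2 (296 CPM) and Col1a1 (1.203 CPM) in clone 3 lay within the ciliated controls, at 157 to 394 CPM and 0.356 to 2.337 CPM. The part of these markers in the calls of members was not tested.

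Wdr34 clone 1 had 1 member called lower and none higher of 37, beside 0.218% of all genes higher and 0.46% lower. This was Tcf7, a transcription factor of the Wnt pathway, at 4.76 CPM against 19.0, 9.36, 21.0 and 6.89 CPM in D8, H12, A4 and G7 (log2 fold change -1.56 ± 0.39, adjusted p = 0.0374, edgeR). It was below all 4 controls, but without D8 the adjusted p was 0.115 and without A4 it was 0.0521, and the call was also lost when any 1 of the 4 replicate numbers was left out. Tcf7 was not called with the replicate number as a block or without the filter on low counts, while DESeq2 and RLE scaling kept its call. The Wdr60 clone had no member called of 37, beside 0.642% of all genes higher and 1.29% lower. Of its members, 12 (32.4%) had an unadjusted p under 0.05, beside 21.9% of all genes. DESeq2 called Wnt9a higher and Celsr1 and Wnt6 lower, beside 0.722% and 1.75% of all genes, and in edgeR Celsr1 had a log2 fold change of -1.12 ± 0.39 with an adjusted p of 0.0901. With edgeR, Fzd1, Fzd8, Lef1, Wnt4 and Wnt9a were called higher without H12, and Fzd8, Lgr4 and Wnt11 higher and Celsr1, Wnt10a and Wnt6 lower without G7, beside 3.74% and 3.27% of all genes called in these fits. Below the fold limit, Fzd6 (338 CPM against 193 to 278 CPM), the transcription factor Lef1 (23.4 against 8.91 to 20.5 CPM) and Wnt5a (20.8 against 8.91 to 15.9 CPM) lay above all 4 controls in Wdr60, with adjusted p of 0.0108, 0.0346 and 0.0126 (edgeR). By the adjusted p alone these were 8.11% of members, beside 6.34% of all genes. Of 33 members, Wdr60 was the highest of the 7 ciliated clones in 7 and the lowest in 1, clone 3 the highest in 6 and the lowest in 5, and clone 1 the highest in 3 and the lowest in 2. Controls were at an end too: G7 was the highest in 5 and the lowest in 9, D8 in 3 and 8, H12 in 5 and 3, and A4 in 4 and 5.

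In non-ciliated cells, 1 member was called higher and 2 lower between the 2 mutant and the 4 control clones, of 35 tested. Over all genes, 0.491% were called higher and 2.57% lower. Fzd1 was called higher, and Tcf7 and Wnt16 were called lower. In the same comparison Twist2 and Zeb1, of 6 tested mesenchyme markers, were called lower (edgeR). Of the 6, 5 had a negative log2 fold change, with a median of -0.56, and none of 12 tested collecting duct markers was called. The part of these markers in the result was not tested. The median log2 fold change was -0.06 over the members and 0.00 over all genes, and 18 members (51.4%) had an unadjusted p under 0.05, beside 30.3% of all genes. Without AB, 8 members (22.9%) were called, beside 4.44% of all genes: Fzd1 and Fzd8 higher and Dkk3, Fzd7, Lgr4, Tcf7, Wnt16 and Wnt2 lower. Wnt2, at 0.468 CPM or less in the mutants, passed the filter on low counts in that fit only through controls, where it was higher. The filter thus decided its call, and the share includes it.

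Tcf7 was at 2.65 CPM in Wdr34 and 5.07 CPM in Wdr60, and at 9.46, 8.42, 7.46 and 9.57 CPM in AB, Co1, Co2 and Co3. Both mutant clones lay below all 4 controls, with means of 3.86 ± 1.71 (SD, n = 2) and 8.73 ± 0.99 CPM (n = 4). Tcf7 had a log2 fold change of -1.18 ± 0.17 (adjusted p = 9.23e-05, edgeR), which was -0.78 without Wdr34 (adjusted p = 0.00551), under the fold limit. Over clones the exact permutation p was 0.0667, the smallest that 15 splits can give. In the ciliated cells the mutant clones overlapped the controls in Tcf7 (-0.55 ± 0.26, adjusted p = 0.242, edgeR), and the difference of the effect between states was 0.63 ± 0.33 (adjusted p = 0.387, edgeR).

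Wnt16 was at 1.34 CPM in Wdr34 and 11 CPM in Wdr60, against 6.75 CPM in AB, 30.7 in Co1, 134 in Co2 and 12.4 in Co3. Wdr34 was below all controls, and Wdr60 lay between AB and Co3. The log2 fold change of -2.89 ± 0.77 (adjusted p = 0.013, edgeR) was -1.43 without Co2 (adjusted p = 0.0636) and -2.06 without Wdr34 (adjusted p = 0.151). Fzd1 was at 25.9 CPM in Wdr34 and 39.1 CPM in Wdr60, against 30.1 CPM in AB, 2.86 in Co1, 3.88 in Co2 and 9.30 in Co3. AB lay between the 2 mutant clones, and the other 3 controls were well below them. The log2 fold change of 1.49 ± 0.45 (adjusted p = 0.0271, edgeR) was called without AB (2.59, adjusted p = 1.44e-06) and lost its call when any 1 of the other 5 clones was left out, with adjusted p from 0.0543 to 0.212. Fzd1 also lost its call when any 1 of the 4 replicate numbers was left out, and Wnt16 without number 2, 3 or 4. In ciliated cells Fzd1 ranged from 0.971 CPM in G7 to 113 CPM in H12 among unedited controls alone, and the mutants, at 22.0, 47.9 and 31.7 CPM, lay inside that range.

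Clone means did not overlap in 9 of the 35 members, 4 wholly above the controls and 5 wholly below, beside 6.95% and 5.91% of all genes. Those above were Axin1, Vangl1, Vangl2 and Wnt5a, and those below were Celsr1, Fzd4, Fzd7, Tcf7 and Tcf7l2. Vangl1, a membrane protein of the polarity core, was at 77.3 and 88.9 CPM in Wdr34 and Wdr60 against 65.5, 54.2, 64.0 and 52 CPM in AB, Co1, Co2 and Co3. Its mutant mean of 83.1 ± 8.18 CPM stood against 58.9 ± 6.85 CPM (exact permutation p = 0.0667), with a log2 fold change of 0.50 ± 0.07 (adjusted p = 5.63e-05, edgeR), below the fold limit. In ciliated cells Vangl1 was at 74.6 CPM in D8 and 160 CPM in G7, and its mutants lay between them.

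Wnt5a was at 23.0 CPM in Wdr34 and 34.9 CPM in Wdr60, against 21.2, 16.4, 12.9 and 19.5 CPM in AB, Co1, Co2 and Co3. Its log2 fold change was 0.72 ± 0.14 (adjusted p = 0.00154, edgeR; exact permutation p = 0.0667). It was above 0 in both states, but only in non-ciliated cells were all mutant clones above all controls. Axin1 was at 144 and 139 CPM against 105 to 138 CPM (0.26 ± 0.06, adjusted p = 0.0084, edgeR), so Wdr60 and Co2 nearly met.

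Celsr1 was at 22.6 CPM in Wdr34 and 15.8 CPM in Wdr60, against 36.2, 22.7, 28.1 and 52.2 CPM in AB, Co1, Co2 and Co3. Wdr34 and Co1 nearly met, and Wdr60 was the lowest. Celsr1 had a log2 fold change of -0.86 ± 0.20 (adjusted p = 0.00478, edgeR) and an exact permutation p of 0.133. Fzd7, a Wnt receptor, was at 21.9 and 15.3 CPM in Wdr34 and Wdr60, against 29.9, 36.0, 55.3 and 23.6 CPM in the controls (-0.96 ± 0.19, adjusted p = 0.00159, edgeR). Tcf7l2, another Tcf factor, was at 26.9 and 29.4 CPM against 36.2, 35.4, 56.0 and 34.1 CPM (-0.52 ± 0.12, adjusted p = 0.00439, edgeR). Both mutant clones lay below the controls in these genes, and Co2 was the highest control in each. Fzd4 was at 3.4 and 3.62 CPM against 3.93 to 7.30 CPM (-0.70 ± 0.16, adjusted p = 0.00529, edgeR). Lef1 was below the fold limit, at 20.2 and 17.4 CPM against 7.38, 14.4, 18.1 and 11.1 CPM (0.56 ± 0.18, adjusted p = 0.0323, edgeR), with Co2 between the mutants.

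**Figure D4:**
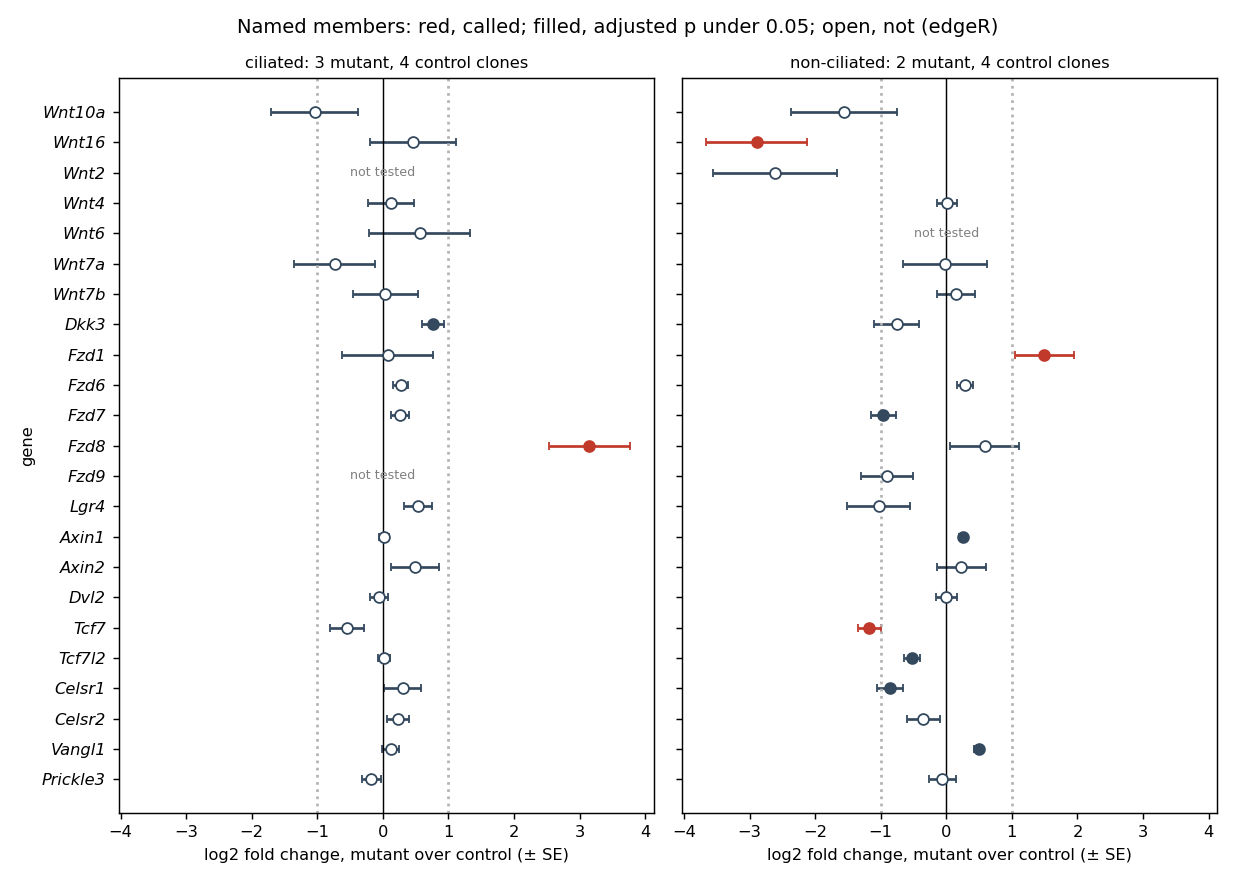
Log2 fold change of mutants over controls with its standard error (edgeR) for named members in ciliated (left) and non-ciliated (right) cells; red is called, filled has an adjusted p under 0.05, open does not, and dotted lines mark a fold of 1 on the log2 scale. Fzd8 at 3.15 is called in ciliated cells, and Fzd1, Tcf7 and Wnt16 in non-ciliated cells.

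Against the same 4 controls, the non-ciliated Wdr60 clone had 4 members called lower and none higher of 38, beside 0.986% of all genes higher and 2.43% lower. Celsr1 (-1.14 ± 0.27, adjusted p = 0.00952) and Fzd7 (-1.24 ± 0.26, adjusted p = 0.00412) were called by edgeR. Fzd9, a Wnt receptor with few reads here, was at 0.134 CPM (1 to 5 counts a library) against 0.820, 0.461, 0.570 and 1.01 CPM in AB, Co1, Co2 and Co3 (-2.37 ± 0.53, edgeR). Wnt2, also called lower, had no count in Wdr60 or in AB, and was at 1.62, 3.82 and 0.457 CPM in Co1, Co2 and Co3. As Wdr60 and AB were both at 0, the groups overlapped in Wnt2, and no fold change is given. Fzd9 and Wnt2 passed the filter on low counts only through the controls, where they were higher. They could only be called lower, so their calls add nothing to these values. The Wdr34 clone had 2 members called lower and none higher of 38, beside 0.275% of all genes higher and 1.97% lower. These were Tcf7 (-1.71 ± 0.16, adjusted p = 2.55e-06) and Wnt16 (-5.09 ± 1.2, adjusted p = 0.0107), by edgeR, at the levels given above. Without Co2 the log2 fold change of Wnt16 was -3.625, and it was still called. In Wdr60, the call of Wnt2 was lost without Co1, Co2 or Co3, while Fzd7 without Co2 (-0.97, adjusted p = 0.000726) and Celsr1 without Co3 (-0.88, adjusted p = 0.0101) were only under the fold limit (edgeR). With 1 replicate number left out, Celsr1 lost its call without number 2, 3 or 4, Fzd9 without 2 or 3, Wnt2 without any 1 of the 4, and Wnt16 in Wdr34 without 2, 3 or 4. Without AB, Fzd1, Fzd8 and Wnt5a were called higher in Wdr60 and Dkk3 and Wnt16 joined the 4 called lower (25.0% of members, beside 6.38% of all genes). With the replicate number as a block, Wnt2 in Wdr60 was not called and Wnt5a was called higher. Of 7 tested mesenchyme markers in Wdr60, Twist2 and Zeb1 were called lower (edgeR), and 6 were negative, with a median of -0.87. Zeb1 was at 1.82 CPM in Wdr60, against 2.89, 37.2, 80.0 and 25.4 CPM in AB, Co1, Co2 and Co3. Of 13 tested collecting duct markers in Wdr60, only Aqp3 was called (higher), beside 0.986% of all genes. Aqp3 was at 1.029 CPM in Wdr60 and 0.103 to 0.362 CPM in the 4 controls. It passed the filter only through Wdr60 and could only be called higher. Of 12 tested in Wdr34, only Hsd11b2 was called (lower), beside 1.97% of all genes. Hsd11b2 was at 0.1958 CPM in Wdr34 and 0.2528 to 1.4994 CPM in the controls, and passed only through controls. These 2 calls add nothing to the values. The part of the markers in the calls of members was not tested.

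No member had its mutant clone means wholly on one side of the controls in both states. The log2 fold change of mutants over controls was more positive in ciliated than in non-ciliated cells in 3 members of 39 and more negative in none, beside 1.12% and 0.0638% of all genes (edgeR interaction term). Fzd7 differed by 1.23 ± 0.23 (log2, adjusted p = 0.00218): its fold change was 0.26 ± 0.14 in ciliated and -0.96 ± 0.19 in non-ciliated cells. Dkk3 differed by 1.53 ± 0.37 (adjusted p = 0.0203), with fold changes of 0.76 ± 0.17 and -0.76 ± 0.35. In the non-ciliated cells Dkk3 was at 22.0 CPM in Wdr34 and 12.3 CPM in Wdr60, against 11.8, 29.9, 58.6 and 15.4 CPM in AB, Co1, Co2 and Co3, and the groups overlapped. Wnt2 differed by 5.64 ± 1.34 (adjusted p = 0.0171), where the only ciliated clone above 0.141 CPM was Wdr34 clone 3. Without that clone it was 0.61 (adjusted p = 0.992, edgeR), and as several clones had no count, the fitted size depends on the prior count. Fzd7 fell just under the fold limit, with its adjusted p still under 0.05, without Co2 (0.962, adjusted p = 0.0115), without the non-ciliated Wdr60 clone (0.998, 0.0344) and without the ciliated Wdr34 clone 1 (0.944, 0.0132), by edgeR. Dkk3 had an adjusted p over 0.05 (edgeR) without Co2 (0.94, adjusted p = 0.135), non-ciliated Wdr60 (1.17, 0.13), ciliated Wdr34 clone 3 (1.32, 0.0873) or A4 (1.32, 0.057), and Wnt2 without Co2 (4.58, 0.0852) or non-ciliated Wdr60 (4.65, 0.0816). Fzd7 alone was called without replicate number 1, 3 or 4, and no member was called without number 2.

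When the 4 libraries of each clone were summed and the clone was the sample, no member was called in any of the 7 mutant comparisons or in the interaction (edgeR). At an unadjusted p under 0.05 that fit gave 1 member for the ciliated mutants together, 4 for the non-ciliated mutants together and 1 for the interaction, beside 1.12%, 4.34% and 0.972% of all genes. A fit with the clone as a random block (limma voomLmFit) called no member in these 3, with 4, 11 and 5 (11.1%, 31.4% and 12.8%) at an unadjusted p under 0.05, beside 2.61%, 7.18% and 1.16% of all genes. Among members tested, the smallest exact permutation p adjusted over all genes was 1.0 in each state.

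Ciliated and non-ciliated control clones were compared next. Of 34 members tested, 6 were called higher and 1 lower, beside 6.29% and 3.99% of all genes (edgeR), and 23 (67.6%) had an unadjusted p under 0.05, beside 64.4% of all genes. Axin2, Celsr2, Dvl2, Fzd4, Prickle3 and Wnt6 were called higher and Fzd8 lower. The median log2 fold change was 0.46 over the members and 0.02 over all genes. In the same comparison 5 of 6 tested mesenchyme markers (Cdh2, Col1a1, Twist2, Vim and Zeb2) were called lower in ciliated cells (median over the 6 of -1.49), and of 11 tested collecting duct markers Cdh16 and Hsd11b2 were called higher. The summed mesenchyme markers ranged from 188.2 to 656.85 CPM in ciliated and from 428.18 to 1367.1 CPM in non-ciliated controls, and their part in the result was not tested. Fzd8 was not called with the replicate number as a block. The marker sums are scaled as before. CPM of members in the following paragraphs on the states are scaled over all 52 libraries, and so differ slightly from those above.

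Prickle3, a cytoplasmic protein of the polarity core, was at 15.6, 18.9, 16.6 and 8.49 CPM in D8, H12, A4 and G7, and at 8.47, 3.66, 6.35 and 4.91 CPM in AB, Co1, Co2 and Co3. The lowest ciliated clone, G7, and the highest non-ciliated clone, AB, nearly met. The log2 fold change was 1.35 ± 0.17 (adjusted p = 3.23e-08, edgeR), and it was called when any 1 of the 8 clones was left out. Dvl2, a transducer of both branches, was at 131, 167, 158 and 265 CPM in the ciliated controls and at 75, 71.3, 127 and 69.5 CPM in the non-ciliated controls. D8 and Co2 were close, and the groups did not overlap (1.08 ± 0.14, adjusted p = 1.01e-07, edgeR). Of the exon bases of Dvl2, 18.28% overlap the antisense gene Acadvl, and 5.02% of those of Prickle3 overlap Plp2; the strand setting of the counting is not given in the sources used here, so part of these counts may belong to the neighbours. Prickle3 and Dvl2 were also called with the clones summed.

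Clone means did not overlap in 5 tested members, all higher in ciliated cells: Dvl1, Dvl2, Fzd6, Prickle3 and Vangl1. Ror1, too low to be tested, lay wholly below, at 0 to 0.0490 CPM in ciliated and 0.0882 to 0.427 CPM in non-ciliated controls. Over all genes, 10.6% lay wholly above and 12.5% wholly below. For each of the 5, the exact permutation p was 0.0286, the smallest possible with 70 splits, and 0.123 after adjustment over all genes tested. Dvl1 was at 171, 186, 156 and 170 CPM in D8, H12, A4 and G7 against 100, 96.0, 137 and 98.4 CPM in AB, Co1, Co2 and Co3. Fzd6, a receptor of the polarity branch, was at 189, 267, 232 and 187 CPM against 163, 137, 88.8 and 108 CPM. Vangl1 was at 73.0, 142, 109 and 154 CPM against 67.2, 56.6, 65.4 and 53.7 CPM. D8 was close to AB in Vangl1, while the other ciliated controls were at 109 CPM or more. The log2 fold changes were 0.67 ± 0.08 for Dvl1, 0.82 ± 0.11 for Fzd6 and 0.98 ± 0.11 for Vangl1, all under the fold limit, with adjusted p of 2.27e-08, 7.49e-08 and 8.42e-09 (edgeR).

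The other members called between states overlapped between the groups of clones. Celsr2 was at 157, 401, 258 and 273 CPM in D8, H12, A4 and G7 against 90.5, 114, 246 and 76.8 CPM in AB, Co1, Co2 and Co3 (1.05 ± 0.21, adjusted p = 9.27e-05, edgeR). Co2 alone reached into the ciliated range. Fzd4 was at 7.19, 6.27, 12.9 and 32.6 CPM against 4.03, 6.12, 7.46 and 5.94 CPM (1.32 ± 0.27, adjusted p = 9.41e-05, edgeR), with G7 the highest. Axin2 was at 0.972, 1.85, 0.387 and 1.2 CPM against 0.373, 0.323, 1.11 and 0.293 CPM (1.07 ± 0.33, adjusted p = 0.00534, edgeR). Wnt6 was at 4.59, 1.52, 0.753 and 0 CPM against 1.26, 0.0321, 0.0126 and 0.405 CPM (1.98 ± 0.72, adjusted p = 0.0172, edgeR). Fzd8 was at 1.2, 1.07, 0.202 and 0.0235 CPM against 3.97, 0.611, 0.238 and 1.38 CPM (-1.31 ± 0.56, adjusted p = 0.0437, edgeR). With 1 clone left out, Celsr2 was under the fold limit without AB, Co1, Co3 or H12 (0.81 to 0.98, adjusted p at most 0.00283), Dvl2 without Co1, Co3 or G7 (0.83 to 0.99) and Fzd4 without G7 (0.58, adjusted p = 0.00458), all still under an adjusted p of 0.05 (edgeR). Axin2 was at 0.87 to 0.94 without AB, Co1 or Co3 (adjusted p at most 0.0408) and at 0.71 without H12 (adjusted p = 0.0791, edgeR). Wnt6 had an adjusted p over 0.05 (edgeR) without Co1, Co2, Co3 or D8 (0.82 to 1.95) and Fzd8 without AB, Co3, A4 or G7 (-1.37 to -0.25). With 1 replicate number left out, Axin2 lost its call without number 4, Wnt6 without 2 or 4 and Fzd8 without any 1 of the 4. In Celsr2, Fzd4, Axin2, Wnt6 and Fzd8, single control clones of one state differed by more than the means of the states did.

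**Figure D5:**
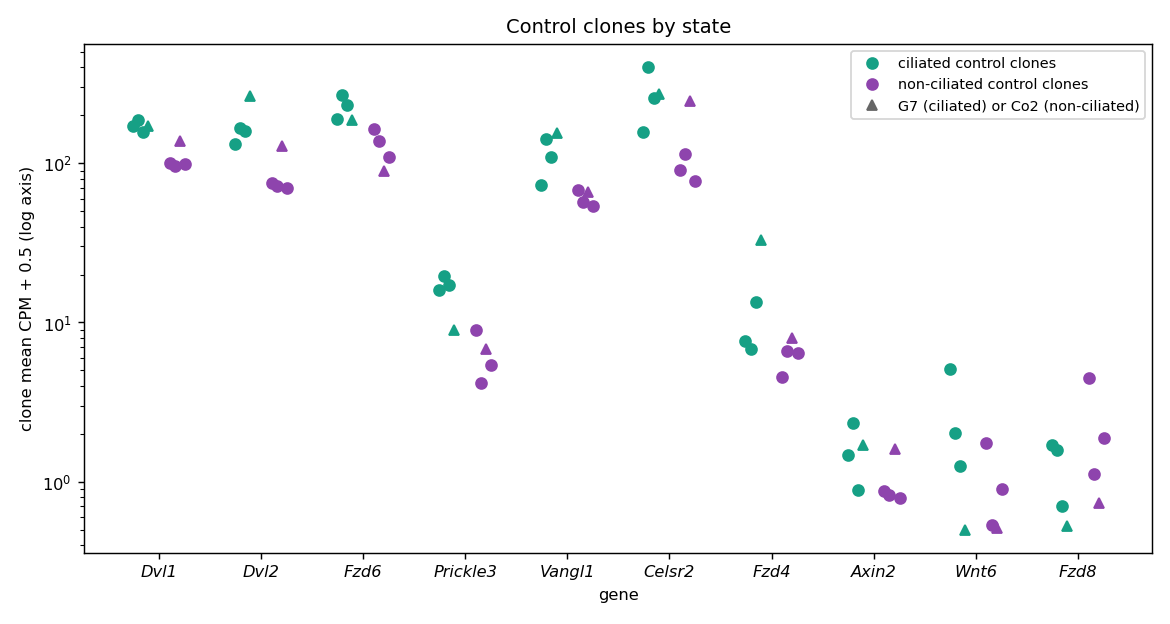
Clone mean CPM + 0.5 (log axis, scaled over all libraries) of 10 members in the 4 ciliated (green) and 4 non-ciliated (purple) control clones, with G7 and Co2 as triangles. Dvl1, Dvl2, Fzd6, Prickle3 and Vangl1 do not overlap between states, whereas Celsr2, Fzd4, Axin2, Wnt6 and Fzd8 do.

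The wider pathway was described from 92 listed genes outside the members, of which 89 were counted. They cover Wnt secretion, co-receptors and surface regulators, the beta-catenin complex, its target genes, and further polarity genes. Between ciliated mutants and controls none of the 68 tested was called (edgeR), while 14 had an unadjusted p under 0.05, a share close to the 19.2% of all genes, and their median log2 fold change was -0.02. Between non-ciliated mutants and controls 4 of 68 were called lower and none higher, beside 2.57% and 0.491% of all genes, with a median of -0.09, and 25 had an unadjusted p under 0.05, beside 30.3% of all genes. The 4 were Daam2, a formin of the polarity branch, Dact2, which binds Dvl, Fuz, a planar polarity effector needed for cilia, and Tle2, a co-repressor of Tcf factors.

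Fuz was at 1.42 CPM in Wdr34 and 2.15 CPM in Wdr60, against 4.28, 3.42, 4.64 and 3.56 CPM in AB, Co1, Co2 and Co3. Both mutant clones lay below all 4 controls. In ciliated cells Fuz was called lower in Wdr34 clone 1 (1.75 CPM against 3.92 to 4.54 CPM in the controls, edgeR), while Wdr60 was at 3.18 CPM and clone 3, at 4.89 CPM, lay above all 4 controls. Daam2 was at 0.488 and 1.0 CPM in Wdr34 and Wdr60 and at 0.649, 1.41, 7.39 and 2.03 CPM in the controls. Dact2 was at 0 and 0.0577 CPM against 0.0126, 2.24, 5.51 and 0.0813 CPM, and Tle2 at 3.39 and 7.17 CPM against 9.19, 4.61, 23.4 and 8.92 CPM. In these 3 genes the groups overlapped and Co2 was the highest control. Dact2 passed the filter on low counts only through Co1 and Co2. It could only be called lower, so its call adds nothing to its values, and the 4 called lower include it. In the ciliated Wdr34 clone 3, 7 of 72 tested were called higher and 2 lower, and between the control clones of the states 4 of 68 were higher in ciliated cells and 2 lower (edgeR), beside the shares of all genes given above. Against the same controls 69 were tested in clone 1 and in Wdr60. Some of the 72 thus passed the filter only through clone 3, which decided any call they had. The listed polarity genes had a median of -0.10 between states (10 positive and 17 negative). The listed target genes of beta-catenin, with the members among them, had a median of -0.11 (9 tested, 4 positive and 5 negative). Of these, Apcdd1 and Ccnd1 were called lower and the member Axin2 higher (edgeR).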

How the data were processed

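RNA of Cilia-APEX-IMCD3 clones, 13 by name and state, was measured in 52 libraries. The deposited values are raw counts per gene symbol, which the authors made with featureCounts in R 3.4.4 after Rsubread alignment to GRCm38, without normalization; the strand setting is not given in the sources used here. The authors tested with DESeq2 1.18.1. The tools used here were edgeR 4.0.16, DESeq2 1.42.0 and limma 3.58.1 under R 4.3.3. Low-count genes were removed with filterByExpr, and the rest were scaled by TMM and tested 2-sided with glmQLFit and glmQLFTest over all genes, and the fits were tested on simulated data. The library was the sample, although the 4 libraries of a clone are technical replicates, so adjusted p-values from these fits measure the spread between libraries and are read beside clone means. CPM are TMM-scaled within a state unless stated. Clone means of log2(CPM + 0.5) were compared by exact permutation. Floors of 3 counts cover counting error only.

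Members named with values were those called in any mutant comparison, Celsr1, Wnt6 and Axin2, the highest member of each family, the 5 members with the widest range between the clones of a state, and members on one side of the controls in both states. The highest member of a family was taken by mean CPM over the clones, not per kilobase of exon. Other members are given values as well, and these were chosen after their values were seen. The members and gene lists were chosen with earlier results of these data known. Alternatives were DESeq2, RLE scaling, no filter, clones summed, voomLmFit blocked on the clone, a block for the replicate number, the adjusted p alone, and leaving out each clone or replicate number. Exon lengths and overlaps came from GENCODE and promoter sequences from RefSeq, both on GRCm38. Groups came from the labels, and no sample was left out.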

Additional observations from a re-analysis of the deposited data

Results flagged for a closer look

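Among 52 groups of 4 control clones, 1 for each of the 26 named members in each state, 5 had 1 clone separated from the rest by a gap that passed Dixon's 95% limit as a share of the group's range, which chance passes in about 1 in 20 independent groups. That rate does not apply here, since some of these members were named for their wide range between clones and all groups share the same 8 clones, so the gaps are a description. Wnt10a in ciliated controls had no count in G7 and 12.9 to 15.1 CPM in the others (gap over range 0.953). Wnt7b was at 14.3 CPM in G7 and at 354 to 567 CPM in the other ciliated controls (0.871). In non-ciliated controls Co2 was the highest clone in Axin2 (1.09 CPM against 0.284 to 0.364 CPM; 0.869), in Dvl2 (124 CPM against 67.4 to 73.1 CPM; 0.871) and in Tcf7l2 (56.0 CPM against 34.1 to 36.2 CPM; 0.882). All 5 fell in G7 or Co2, the control clones with the lowest Cdh1 and Epcam and the highest Cdh16, Pax2 and Pax8 of their state, and the part of these in the gaps was not tested.

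The mutant effect differed between states by the adjusted p of an interaction term (edgeR) in 4 members of 39 (10.3%), beside 1.89% of all genes. The log2 fold change in ciliated less that in non-ciliated cells was 1.53 for Dkk3, 1.23 for Fzd7, 0.545 for Tcf7l2 (± 0.15, adjusted p = 0.0398, under the fold limit) and 5.64 for Wnt2. Tcf7l2 was the highest in Co2 of the non-ciliated clones, and without Co2 Fzd7 was at 0.962 with an adjusted p of 0.0115 (edgeR). Dkk3 was then at 0.94 (adjusted p = 0.135, edgeR). Without the ciliated Wdr34 clone 3, Wnt2 was at 0.61 (adjusted p = 0.992, edgeR), and several clones had no count in Wnt2.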

How the results depend on the processing

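Libraries of a clone were the samples of the main tests. With the clones summed, the count of called members fell to 0 in each mutant comparison that had any and in the interaction, and to 2 between states. With voomLmFit it was 0 in all mutants of either state, Wdr34 clone 1, both non-ciliated single clones and the interaction, 3 in Wdr34 clone 3 and 3 between states. Without the filter it was 4 and 5 in all ciliated and all non-ciliated mutants, 0 in Wdr34 clone 1, 11 in Wdr34 clone 3 and 14 between states. DESeq2 called 5 in all non-ciliated mutants, 3 in ciliated Wdr60, 2 in Wdr34 clone 1, 8 in Wdr34 clone 3, 4 in non-ciliated Wdr34, 13 between states and 6 in the interaction. By the adjusted p alone there were 4 and 11 in all ciliated and non-ciliated mutants, 3 in ciliated Wdr60, 3 in Wdr34 clone 1, 10 in Wdr34 clone 3, 8 and 6 in non-ciliated Wdr60 and Wdr34, 21 between states and 35 among the non-ciliated controls, beside 3.17%, 15.0%, 6.34%, 2.20%, 20.8%, 12%, 11.5%, 60.9% and 80.5% of all genes in the same order. Without the filter 1.63%, 3.19%, 0.449%, 6.01% and 13.9% of all genes were called in the 5 comparisons named, and by DESeq2 3.48%, 2.47%, 1.37%, 5.82%, 2.85%, 11% and 1.54% in the 7 named. With the clones summed no gene was called in the mutant comparisons or the interaction and 5.03% between states, and with voomLmFit 2.0% in Wdr34 clone 3 and 7.84% between states. On average, replicate numbers did not pair the libraries (mean correlation 0.0299 in ciliated and -0.00317 in non-ciliated cells). Single pairs of the same number ranged from -0.363 to 0.785 in ciliated cells, with 26 of 84 over 0.1. In non-ciliated cells they ranged from -0.454 to 0.254, with 17 of 60 over 0.1, so deviations shared by some libraries are not excluded. With the replicate number as a block the counts were 1 and 3 in all mutants and 0 in Wdr34 clone 1, and Fzd8 between states and Wnt2 in non-ciliated Wdr60 were no longer called while Wnt5a was called there; 8 of 28 ciliated and 7 of 24 non-ciliated libraries were closest to their own number.

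With all libraries kept, 244 of 258 values held their direction and side of the threshold. Fzd8 in ciliated cells (3.14 with clones summed, 3.39 with voomLmFit) and Fzd1 (1.5, 2.05), Tcf7 (-1.18, -1.29) and Wnt16 (-2.90, -2.64) in non-ciliated cells were no longer called, and 6 values reversed: Wnt10a (0.90) and Wnt7a (0.72) in ciliated and Wnt7a (1.40) in non-ciliated cells with voomLmFit, Dvl2 in non-ciliated cells with clones summed (0.014) or voomLmFit (0.032), and Wnt4 there without the filter (-0.003119). The cause was not tested.

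When a clone or a replicate number was left out, called members ranged from 0 to 4 in all ciliated mutants, 1 to 8 in all non-ciliated mutants, 0 to 6 in ciliated Wdr60, 0 to 3 in Wdr34 clone 1, 3 to 11 in Wdr34 clone 3, 1 to 9 in non-ciliated Wdr60, 1 to 6 in non-ciliated Wdr34, 2 to 10 between states and 0 to 6 in the interaction. Of all genes, 0.201% to 2.89%, 1.34% to 4.44%, 0.658% to 3.74%, 0.105% to 2.26%, 3.86% to 13.1%, 1.31% to 6.38%, 0.608% to 4.18%, 8.62% to 13.2% and 0.0557% to 4.68% were called in the same fits. Of 448 such values 366 held. Log2 fold changes that changed sign ranged, in ciliated cells, from -0.022 to 0.074 for Axin1, -0.50 to 0.88 for Axin2, -0.12 to 0.74 for Celsr1, -0.004097 to 0.49 for Celsr2, -0.19 to 0.19 for Dvl2, -0.33 to 2.72 for Fzd1, -0.021 to 0.42 for Fzd7, -0.14 to 0.10 for Tcf7l2, -0.055 to 0.27 for Vangl1, -1.55 to 1.91 for Wnt16, -0.26 to 0.66 for Wnt4, -1.91 to 1.71 for Wnt6 and -0.36 to 0.41 for Wnt7b. In non-ciliated cells they ranged from -0.55 to 0.14 for Celsr2, -0.10 to 0.25 for Dvl2, -0.21 to 1.65 for Fzd8, -1.80 to 0.088 for Lgr4, -0.44 to 0.25 for Prickle3, -0.41 to 0.33 for Wnt4, -0.44 to 0.71 for Wnt7a and -0.17 to 0.40 for Wnt7b. Depth limited Fzd9, with 0 to 30 counts a library, and Wnt2, with 0 to 80.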
